A study of Homo sapiens with 12 samples.

Results

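A set of 10 genes of the matrix metalloproteinase system was followed through RNA sequencing of 2 established lines of human ESCC, squamous cell carcinoma of the esophagus. They were 8 proteases (MMP1, MMP2, MMP3, MMP7, MMP9, MMP10, MMP13 and MMP14) and 2 of their inhibitors (TIMP1 and TIMP2), found by symbol in a table of 38516 genes. All 10 were listed, and 9 passed the filter for testing, which asked for 0.5 RPKM or more in 3 or more libraries. RPKM is the number of reads scaled to exon length in kilobases and to the reads of the library. The lines, KYSE150 and KYSE510, were grown in RPMI-1640 with fetal bovine serum. Each was sequenced as control cells and as cells in which HCP5, a long non-coding RNA gene, had been silenced, with 3 libraries in each of the 4 groups. Sample titles begin with sh in every library and with shc in controls, but the labels do not describe the silencing construct or its control. The labels also do not say whether the cells were a pool or a clone or whether replicates were separate cultures. P-values therefore measure only the spread between these libraries, which may be technical. The set was selected on the measured RPKM of the control libraries, in which MMP14 differed strongly between lines, so the values of the control lines are described here without a test.

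Matrix metalloproteinases are zinc-dependent enzymes that cut the proteins of the extracellular matrix and the basement membrane. Most are secreted as inactive proenzymes. MMP14 is held in the cell membrane, where it cuts collagen and activates the proenzyme of MMP2 with the help of TIMP2. TIMP1 and TIMP2 are secreted proteins that block the active site, and TIMP1 is a poor inhibitor of MMP14. In squamous carcinomas these enzymes are known from tumour cells at the invasive edge and from the surrounding stroma, which a cell line lacks.

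Promoter sequences are shown for the 2 members with opposite levels in the 2 lines, MMP14 and MMP7, and for MMP10, which lies on the same chromosome arm as MMP7 and had the opposite direction between lines. RefSeq promoters (GRCh38.p14, 250 bases before to 50 after the start) were matched for 4 of the 10 members, the fourth being TIMP1. Capitals mark matches to 3 motifs. They were the AP-1 motif TGAGTCA, the TATA box with the letters TATAAA and the GC box with the letters GGGCGG, each searched on both strands. No matches overlapped each other in these 4 windows.
MMP14, chr14:22836335-22836634, plus strand: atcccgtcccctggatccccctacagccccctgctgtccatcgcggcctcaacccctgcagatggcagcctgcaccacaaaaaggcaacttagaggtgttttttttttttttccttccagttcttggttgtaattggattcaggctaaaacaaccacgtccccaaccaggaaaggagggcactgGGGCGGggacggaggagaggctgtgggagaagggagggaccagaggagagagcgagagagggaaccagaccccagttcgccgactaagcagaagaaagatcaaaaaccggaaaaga
MMP7, chr11:102530698-102530997, minus strand: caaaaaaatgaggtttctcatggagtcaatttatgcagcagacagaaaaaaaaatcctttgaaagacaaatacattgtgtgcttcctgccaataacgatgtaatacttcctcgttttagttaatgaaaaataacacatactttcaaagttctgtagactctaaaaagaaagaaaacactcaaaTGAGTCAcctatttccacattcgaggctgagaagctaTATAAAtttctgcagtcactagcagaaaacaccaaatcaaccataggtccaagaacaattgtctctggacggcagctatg
MMP10, chr11:102780579-102780878, minus strand: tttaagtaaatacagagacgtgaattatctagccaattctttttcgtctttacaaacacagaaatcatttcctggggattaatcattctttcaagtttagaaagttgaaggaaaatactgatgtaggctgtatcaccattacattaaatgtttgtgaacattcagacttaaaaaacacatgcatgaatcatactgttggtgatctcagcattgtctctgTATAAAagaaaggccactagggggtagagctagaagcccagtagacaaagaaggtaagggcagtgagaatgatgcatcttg
The MMP14 window held 1 GC box, 66 bases before the start, with 55% G and C. The MMP7 window held an AP-1 motif 67 bases and a TATA box 30 bases before the start, with 35.7% G and C. The MMP10 window held a TATA box 31 bases before the start, with 36.3% G and C. TIMP1 had GC boxes on the opposite strand 135 and 45 bases before its start. Among 35116 RefSeq promoters of the same length, 4.95% held the AP-1 motif, 11.5% the TATA box and 44.95% the GC box. A match is a description of letters and not of a bound site.

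Recovered reads per library ran from 20035025 to 28202422, and every silenced library of KYSE150 was deeper than every KYSE150 control. HCP5 itself ran from 0.745 to 0.786 RPKM across KYSE150 controls and from 0.315 to 0.579 after silencing, and from 0.914 to 1.85 against 0.505 to 0.951 in KYSE510, where the groups overlapped. All 9 squamous markers were detected in every group, with summed levels of 1105.5 to 1772.4 RPKM in KYSE150 controls, 1372.7 to 2968.8 in KYSE150 silenced libraries, 1543.3 to 2085.9 in KYSE510 controls and 1911.9 to 3137.8 in KYSE510 silenced libraries. The 9 fibroblast markers summed to at most 0.236 RPKM in KYSE150 and to 1.78 to 2.64 in KYSE510, with PDGFRA at 0 in all 12 libraries. Of 8 leukocyte markers only CD68, also a lysosomal protein, was high enough to be tested (29.7 to 47.1 RPKM). The 5 endothelial markers summed to at most 0.116 RPKM in KYSE150 and to 0.643 to 2.10 in KYSE510. FAP and CDH5, of the fibroblast and endothelial lists, were higher in silenced KYSE510 than in silenced KYSE150 libraries by 2.22 and 1.59 on the log2(RPKM + 0.5) scale, and the part of such genes in the line differences was not tested. The mitochondrial share of reads was 7.49% to 8.91% for KYSE150 and 10.2% to 11.5% for KYSE510.

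MMP14, the membrane-bound activator, was the most abundant member in KYSE150 and the sixth of the 10 in KYSE510, under 0.3 RPKM. The gene lies on chromosome 14 from 22836557 to 22849027 on the plus strand (GRCh38), with 4464 exon bases that no other listed gene shares. In KYSE150 its RPKM was 45.1, 41.4 and 60.3 in control replicates 1, 2 and 3 and 62.4, 61.0 and 80.2 in silenced replicates 1, 2 and 3. KYSE510 controls had 0.233, 0.230 and 0.277, and KYSE510 silenced libraries 0.140, 0.265 and 0.153. These levels rested on 3790 to 9648 reads per library in KYSE150 and on 15 to 34 in KYSE510. The 3 silenced KYSE150 libraries all lay above the 3 controls, while in KYSE510 the groups overlapped. These are bulk libraries, in which fewer cells of a type and less RNA per cell cannot be told apart.

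In KYSE150 the mean of MMP14 was 48.9 ± 10.0 RPKM in controls and 67.9 ± 10.7 in silenced libraries (SD, n = 3), 139% of control. The change was 0.48 on the log2(RPKM + 0.5) scale (SE 0.15), beside a median of 0.08 over all genes tested. It was higher in 3 of 3 same-numbered pairs. With limma the adjusted p over all genes was 0.151, so it was not called, and the exact two-sided permutation p was 0.1, the lowest that 3 against 3 libraries allow. With the replicate number as a block the limma adjusted p was 0.0283, which changes the call. Without KYSE150 control replicate 3, the highest control, the change was 0.63 with a limma adjusted p of 0.0308. Over all alternatives that p ran from 0.000515 to 0.463. In KYSE510 the change was -0.13 (SE 0.15; limma adjusted p = 0.953). The difference between the lines' changes was -0.60 (SE 0.21), at a limma adjusted p of 0.394, or 0.109 when blocked. Depth was higher in every silenced KYSE150 library, the summed squamous markers reached higher there with overlap, and the part of either in the MMP14 values was not tested.

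**Figure D1:**
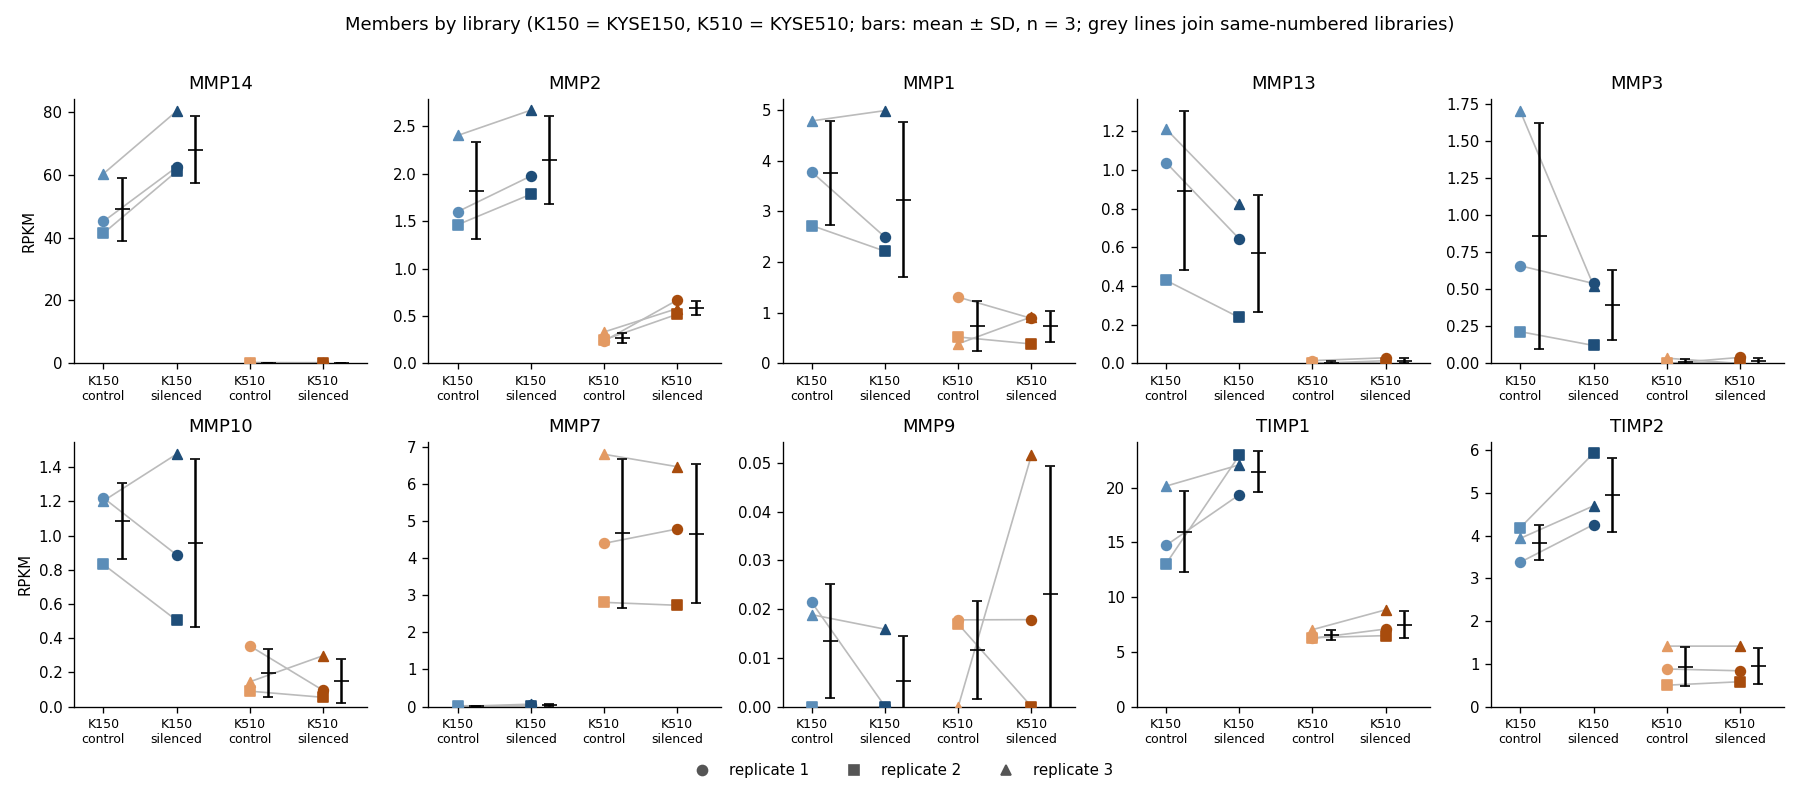
RPKM of the 10 members in each of the 12 libraries, 1 panel per gene with its own linear axis from 0; points are libraries (circle, square and triangle for replicates 1, 2 and 3), grey lines join same-numbered control and silenced libraries of a line, and black bars are mean ± SD (n = 3). MMP14 lies at 41.4 to 80.2 in KYSE150 and under 0.3 in KYSE510, MMP7 shows the reverse order, and MMP9 stays at or below 0.0516 in all libraries.

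The gelatinases MMP2 and MMP9 cut denatured collagen and the collagen of basement membranes, and MMP2 is the main proenzyme that MMP14 activates. MMP2 lies on chromosome 16 from 55389700 to 55506691 on the plus strand, and shares 174 of its 4933 exon bases with RP11-212I21.3 on the same strand. Its RPKM in the KYSE150 controls was 1.60, 1.46 and 2.40, and in the silenced ones 1.97, 1.78 and 2.67, which overlap. KYSE510 controls had 0.236, 0.249 and 0.332, and KYSE510 silenced libraries 0.667, 0.518 and 0.578. All 3 silenced KYSE510 libraries lay above all 3 controls, on 54 to 79 reads against 28 to 45.

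The KYSE510 mean of MMP2 was 0.272 ± 0.0519 RPKM in controls and 0.588 ± 0.0750 in silenced libraries (SD, n = 3), 216% of control. On the log2(RPKM + 0.5) scale, which understates changes of low genes, the change was 0.49 (SE 0.16). The limma adjusted p was 0.556, and 0.0994 with the replicate block, so it was not called by either fit. The voom fit of recovered reads with the block gave a change of 1.09 with an adjusted p of 0.0108, which ends on the other side of the threshold. Over all alternatives that p ran up to 1. In KYSE150 the change was 0.19 (SE 0.16; limma adjusted p = 0.541), with the silenced library higher in 3 of 3 same-numbered pairs. Leaving out 1 library brought that value to between 0.056, without silenced replicate 3, and 0.37, without control replicate 3. Averaged over both lines MMP2 changed by 0.34 (SE 0.11), at a limma adjusted p of 0.266, or 0.0401 when blocked, which changes the call, in a range over the alternatives from 0.00302 to 0.497. An exact permutation within lines, over 400 arrangements, gave a two-sided p of 0.03 for this mean. The silenced library was higher in 6 of 6 same-numbered pairs.

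MMP9, the other gelatinase, lies on chromosome 20 from 46008908 to 46016561 on the plus strand. It had 0 to 3 reads in each of the 12 libraries and at most 0.0516 RPKM. It was under the filter and was not tested. A count of 3 reads, the limit that a count of 0 allows, would give 0.0455 to 0.0641 RPKM in these libraries. MMP9 was therefore not detectable above that floor at this depth, in either line or treatment, in any library. It also shares 430 of its 2336 exon bases (18.4%) with RP11-465L10.10 on the opposite strand.

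The interstitial collagenases MMP1 and MMP13, which open the triple helix of fibrillar collagen, were higher in KYSE150 than in KYSE510. MMP1 lies on chromosome 11 from 102789920 to 102798160 and MMP13 from 102942995 to 102955734, both on the minus strand. KYSE150 controls had MMP1 levels of 3.78, 2.72 and 4.79 RPKM, and silenced libraries 2.49, 2.21 and 4.99. KYSE510 controls had 1.31, 0.522 and 0.387, and silenced libraries 0.889, 0.385 and 0.918. Treated and control libraries overlapped in both lines. MMP13 levels were 1.04, 0.430 and 1.21 RPKM in the KYSE150 controls, and 0.644, 0.238 and 0.824 after silencing. Each silenced library was below its same-numbered control, but the groups overlapped. In KYSE510 MMP13 had 0 to 2 reads per library, at or below the 3-read floor. The silencing changes in KYSE150 were -0.24 for MMP1 (SE 0.33; limma adjusted p = 0.743) and -0.38 for MMP13 (SE 0.24; limma adjusted p = 0.423, and 0.0541 with the block). Neither was called by these fits, while voom on recovered reads with the block called MMP13 (adjusted p = 0.0296). Leaving out 1 library moved the MMP1 value to between -0.55, without silenced replicate 3, and -0.043, without silenced replicate 2. The MMP13 value moved to between -0.65, without control replicate 2, and -0.13, without silenced replicate 2. MMP1 shares 150 of its 1970 exon bases (7.61%) with WTAPP1, which runs on the other strand, and its reads there are uncertain, since the use of strand in counting is not given in the sources used here.

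The stromelysins MMP3 and MMP10 cut proteoglycans and other matrix proteins and can activate procollagenases. MMP3 lies on chromosome 11 from 102835801 to 102843803 and MMP10 from 102770503 to 102780628, both on the minus strand. KYSE150 controls had MMP3 levels of 0.658, 0.214 and 1.70 RPKM, and silenced libraries 0.539, 0.121 and 0.525. It had 0 to 2 reads per library in KYSE510. The KYSE150 spread was wide: control replicate 3 had 79 reads and control replicate 2 had 9. MMP10 levels were 1.22, 0.831 and 1.20 RPKM in the KYSE150 controls, and 0.887, 0.504 and 1.48 after silencing. In KYSE510 MMP10 ran from 0.0539 to 0.355 RPKM, on 2 to 15 reads. The groups overlapped for both genes in both lines. The KYSE150 silencing changes were -0.49 for MMP3 (SE 0.33; limma adjusted p = 0.453) and -0.17 for MMP10 (SE 0.24; limma adjusted p = 0.754). Leaving out KYSE150 control replicate 3 brought the MMP3 value to -0.06 and leaving out control replicate 2 to -0.87. The voom fit of recovered reads with the block called MMP3 in KYSE150 (adjusted p = 0.0390). MMP3 shares 32 exon bases with WTAPP1 on the opposite strand.

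MMP3 and MMP10 are near copies in part of their sequence, and the stretch is shown because a read wholly within it matches both genes. Their longest identical run in GENCODE release 29 transcripts was 96 bases, in the third exon of each gene and coding in both, at chr11:102842434-102842529 in MMP3 and chr11:102779216-102779311 in MMP10, minus strand, GRCh38.
MMP3 and MMP10 shared run: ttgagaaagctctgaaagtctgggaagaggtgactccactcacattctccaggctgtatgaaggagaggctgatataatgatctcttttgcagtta
Of the 50-base words of their transcripts, 59 were shared between these 2 genes, 2.88% of those of MMP3 and 3.36% of those of MMP10. The next longest run between 2 members was 23 bases, for MMP2 and MMP9. No 50-base word of MMP1, MMP7, MMP9, MMP13, MMP14 or TIMP1 occurred in a transcript of another gene.

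MMP7 (matrilysin), a small protease made mainly by epithelial cells that lacks the hemopexin domain of most of the family, was the one tested member with the higher level in KYSE510. It lies on chromosome 11 from 102520508 to 102530753 on the minus strand. KYSE510 controls had 4.40, 2.81 and 6.81 RPKM, and silenced libraries 4.79, 2.73 and 6.47. The 2 groups were nearly superimposed, replicate by replicate. In KYSE150 it had 0 to 1 reads in controls and 1 to 4 in silenced libraries, at most 0.0639 RPKM, so no fold was computed. The KYSE510 silencing change was 0.00 (SE 0.29; limma adjusted p = 1), with a 2.42-fold range over the KYSE510 controls alone.

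The inhibitors TIMP1 and TIMP2 were both higher in KYSE150. TIMP1, a broad inhibitor of secreted proteases, lies on chromosome X from 47582313 to 47586789 on the plus strand. KYSE150 controls had 14.7, 13.1 and 20.2 RPKM, and silenced libraries 19.4, 23.0 and 22.1. Only control replicate 3 reached into the silenced range. KYSE510 controls had 6.23, 6.29 and 7.03, and silenced libraries 7.09, 6.48 and 8.84, where silenced replicate 2 fell within the control range. In all 6 same-numbered pairs the silenced library was higher. The change was 0.43 in KYSE150 (SE 0.15; limma adjusted p = 0.193, and 0.0723 with the block) and 0.17 in KYSE510 (SE 0.15; limma adjusted p = 0.942). The mean over lines, 0.30 (SE 0.11), had an adjusted p of 0.301 by limma and an exact two-sided permutation p of 0.04 over 400 arrangements. Without KYSE150 control replicate 3 the KYSE150 change was 0.61 with a limma adjusted p of 0.0334, which passes the threshold. The voom fit with the block also called it (adjusted p = 0.0148). That p ran from 0.0148 to 0.534 over the alternatives.

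TIMP2, the inhibitor that also forms the complex through which MMP14 activates MMP2, lies on chromosome 17 from 78852977 to 78925387 on the minus strand. KYSE150 controls had 3.38, 4.19 and 3.93 RPKM, and silenced libraries 4.26, 5.92 and 4.69. The silenced KYSE150 libraries lay above all controls, by a narrow margin between 4.19 and 4.26. KYSE510 controls had 0.878, 0.499 and 1.41, and silenced libraries 0.836, 0.580 and 1.41, which overlap. The change was 0.33 in KYSE150 (SE 0.25; limma adjusted p = 0.493, and 0.0505 with the block) and 0.02 in KYSE510 (SE 0.25; limma adjusted p = 1). The voom fit of recovered reads with the block called the KYSE150 change (adjusted p = 0.00942). TIMP2 shares 367 of its 5633 exon bases with RP11-323N12.5 on the opposite strand and 198 with CEP295NL on the same strand, so these reads are uncertain.

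Across the members, silencing HCP5 moved none past the threshold in the limma fit without a block. None of the 9 tested members was called in KYSE150, where 0.499% of all genes tested were. None was called in KYSE510 (0.0393% of genes), in the mean over lines (0.539%) or in the difference between lines (0%). At an unadjusted p under 0.05 there were 2 in KYSE150 (MMP14 and TIMP1), beside 18.1% of all genes, and 1 in KYSE510 (MMP2), beside 6.35%. At that level there were 2 in the mean (MMP2 and TIMP1), beside 11.5%, and 1 in the difference (MMP14), beside 12.2%. The voom fit of recovered reads without the block called 0 in each of these 4 comparisons. With the replicate block limma called 1 member in KYSE150, MMP14, where it called 6.7% of all genes. With that block it called 0 in KYSE510 (0.112% of genes), 1 in the mean, MMP2 (2.74%), and 0 in the difference (0%).

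The members' median change was 0.08 in KYSE150, the same to 2 decimals as the median of 0.08 over all genes, and 0.02 in KYSE510 beside -0.02. The silenced libraries lay above the controls without overlap for 2 of 9 members in KYSE150, MMP14 and TIMP2, beside 13.7% of all genes tested, and for 1 of 9 in KYSE510, MMP2, beside 5.22%. No member lay below the controls without overlap in KYSE150 (5.47% of all genes) or in KYSE510 (6.87%). In KYSE150 the 4 members higher in 3 of 3 same-numbered pairs were MMP2, MMP14, TIMP1 and TIMP2, beside 37.4% of all genes. The 2 members lower in 3 of 3 pairs there were MMP3 and MMP13, beside 13.7% of all genes. In KYSE510 MMP2 and TIMP1 were higher in 3 of 3 pairs, beside 16% of all genes, and 0 members were lower in 3 of 3, beside 21.8%.

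**Figure D2:**
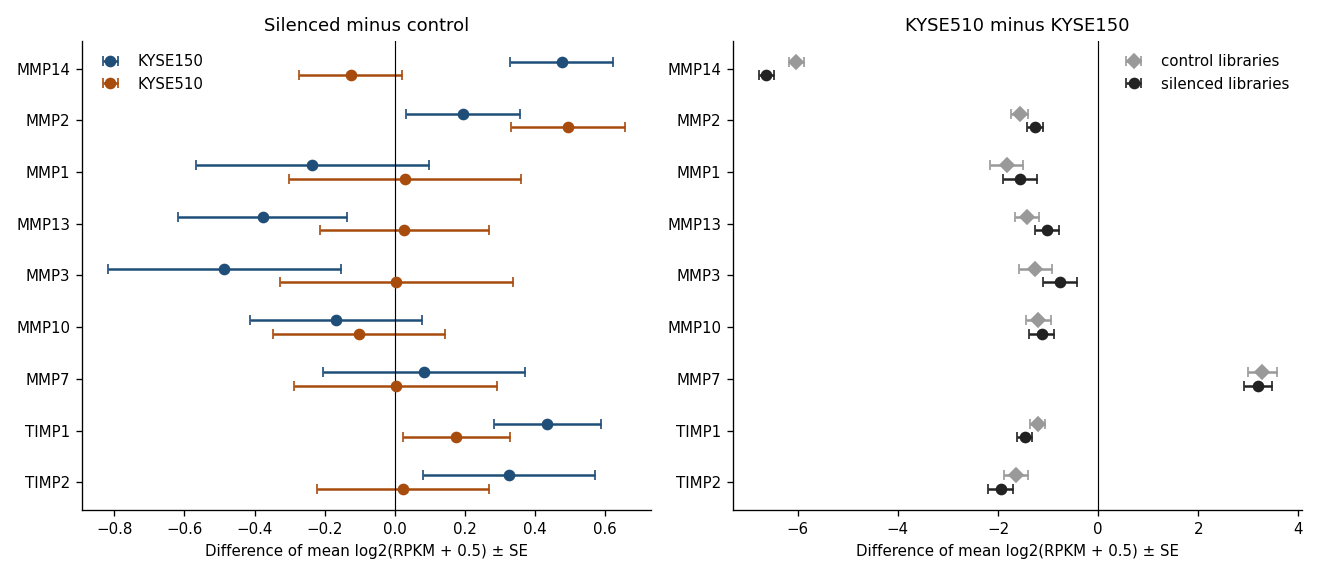
Differences of mean log2(RPKM + 0.5) ± SE for the 9 tested members, from limma: silenced minus control in each line (left) and KYSE510 minus KYSE150 in control and in silenced libraries (right), on separate linear axes. On the left the values lie between -0.49 and 0.49, while on the right MMP14 reaches -6.63 and MMP7 is the one member above 0; control values on the right are a description.

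The order of levels separated the lines. In KYSE150 controls it ran MMP14 (48.9 RPKM), TIMP1 (16.0), TIMP2 (3.83), MMP1 (3.76), MMP2 (1.82), MMP10 (1.08), MMP13 (0.894), MMP3 (0.857), MMP9 and MMP7. TIMP2 overlapped MMP1 over libraries, as did MMP10, MMP13 and MMP3 in sequence, and MMP9 with MMP7. In KYSE510 controls it ran TIMP1 (6.52), MMP7 (4.67), TIMP2 (0.930), MMP1 (0.739), MMP2 (0.272), MMP14 (0.247), MMP10 (0.196), MMP3, MMP9 and MMP13. There TIMP1 overlapped MMP7, TIMP2 overlapped MMP1, MMP2, MMP14 and MMP10 overlapped in sequence, and so did MMP3, MMP9 and MMP13. The first 8 places of the KYSE150 order held the same genes in silenced libraries. In silenced KYSE510 libraries TIMP1 lay just above MMP7 (6.48 as its lowest against 6.47 as the highest of MMP7), and MMP2 (0.588) lay above MMP14 (0.186) without overlap.

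MMP14 supplied most of the summed RPKM of the 8 proteases in KYSE150, and MMP7 most of it in KYSE510. The MMP14 share was 84.4%, 87.9% and 84.2% in KYSE150 controls and 90.5%, 92.6% and 88.4% in silenced libraries. All silenced shares lay above all control shares. The MMP7 share was 67.0%, 71.7% and 85.3% in KYSE510 controls and 71.8%, 69.1% and 76.3% in silenced libraries, which overlap. The summed protease RPKM was 57.4 ± 12.7 in KYSE150 controls, 75.2 ± 13.5 in KYSE150 silenced libraries, 6.16 ± 2.06 in KYSE510 controls and 6.37 ± 2.28 in KYSE510 silenced libraries (SD, n = 3). Divided by the sum of TIMP1 and TIMP2 it was 2.88 ± 0.135, 2.86 ± 0.555, 0.815 ± 0.207 and 0.743 ± 0.159 in the same order (SD, n = 3). This RNA ratio was at least 2.28 in every KYSE150 library and at most 0.946 in every KYSE510 library.

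**Figure D3:**
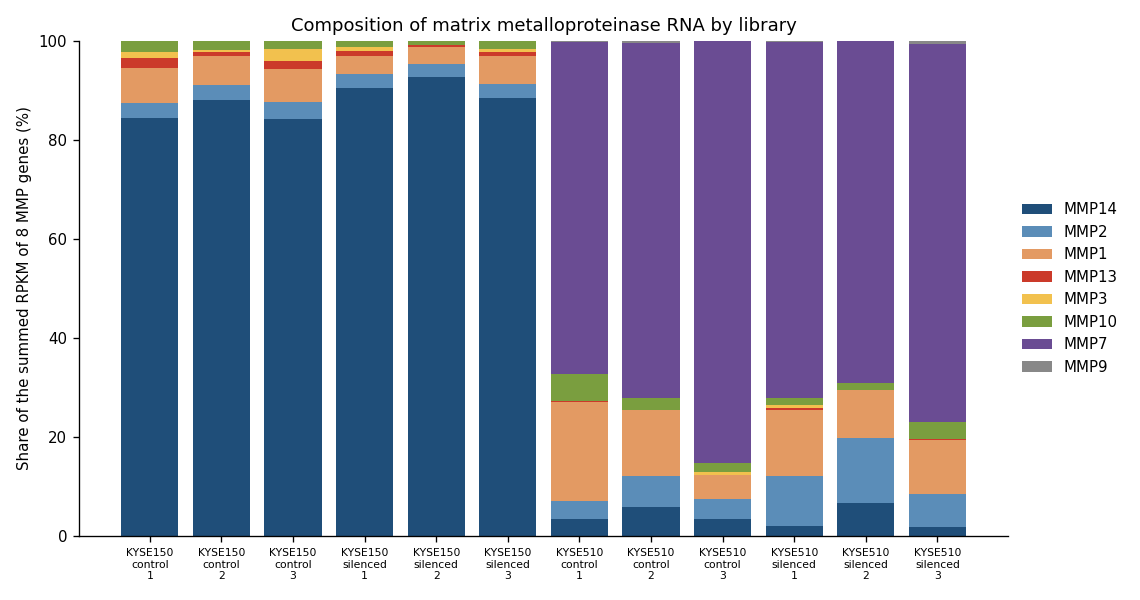
Share of each of 8 matrix metalloproteinase genes in their summed RPKM, as stacked bars from 0 to 100% for the 12 libraries. MMP14 takes 84.2% to 92.6% of each KYSE150 library, and MMP7 takes 67.0% to 85.3% of each KYSE510 library.

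In the control libraries, whose contrast was used to pick the members, MMP14 was 198-fold lower in mean RPKM in KYSE510 than in KYSE150. On the log2(RPKM + 0.5) scale the control differences, KYSE510 minus KYSE150, were -6.03 for MMP14, 3.28 for MMP7, -1.82 for MMP1, -1.64 for TIMP2 and -1.57 for MMP2. They were -1.42 for MMP13, -1.25 for MMP3, -1.21 for TIMP1 and -1.19 for MMP10. In this contrast 62% of all genes tested passed the threshold.

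The silenced libraries gave a contrast of the lines that was not used in picking the members, although they come from the same 2 lines. Of the 9 tested members, MMP1, MMP2, TIMP1 and TIMP2 reached 0.5 RPKM in both lines. MMP3, MMP10, MMP13 and MMP14 passed the filter only through KYSE150 and MMP7 only through KYSE510. For these genes the line difference was partly fixed by the filter, and MMP14 was also picked on a difference between the same lines. Their values and the count that follows are therefore a description. There 8 of 9 tested members differed, 7 lower and 1 higher in KYSE510, beside 64.1% of all genes tested (39.8% lower and 24.2% higher). MMP14 was 365-fold lower in mean RPKM in KYSE510, a difference of -6.63 on the log2(RPKM + 0.5) scale (SE 0.15). MMP7 was higher by 3.20 (SE 0.29). The inhibitor TIMP2 was 5.26-fold lower (difference -1.95, SE 0.25) and TIMP1 2.87-fold lower (-1.47, SE 0.15). MMP1 was 4.42-fold lower (-1.56, SE 0.33), MMP2 3.64-fold lower (-1.27, SE 0.16) and MMP10 6.43-fold lower (-1.13, SE 0.24). MMP13 differed by -1.01 (SE 0.24), on 0 to 2 reads per library in KYSE510. The limma adjusted p-values of MMP1, MMP2, TIMP1 and TIMP2, which reached 0.5 RPKM in both lines, ran up to 0.0016. MMP3 differed by -0.76 (SE 0.33) and missed the threshold at a limma adjusted p of 0.0637. For each of MMP1, MMP2, TIMP1 and TIMP2 the exact two-sided permutation p was 0.1, the lowest possible.

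Several members followed the replicate number in both controls and silenced libraries. MMP1, MMP3, MMP10 and MMP13 were lowest in replicate 2 of KYSE150 in either group, as were MMP2 and MMP14. MMP7 was lowest in replicate 2 and highest in replicate 3 of KYSE510 in both groups, as was TIMP2. The highest library exceeded the lowest by 1.76-fold and 2.25-fold for MMP1 in KYSE150 controls and silenced libraries, 2.82-fold and 3.47-fold for MMP13, 7.94-fold and 4.45-fold for MMP3, and 2.42-fold and 2.37-fold for MMP7 in KYSE510. What the replicate number stands for (a culture, a day or a preparation) is not given in the sources used here.

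Deviations from group means on the log2(RPKM + 0.5) scale were compared between members over the 6 libraries of a line. This is a description, since same-numbered libraries were taken as pairs and may not be independent. In KYSE150 MMP14 and MMP2 correlated at r = 0.993, MMP1 and MMP10 at 0.909 and MMP3 and MMP13 at 0.890. TIMP2 had negative values with all 6 proteases compared, from -0.732 with MMP13 to -0.150 with MMP14, while TIMP1 had positive values from 0.186 with MMP10 to 0.786 with MMP14. In KYSE510 MMP7 and TIMP2 correlated at 0.977.

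For MMP14, the genes with the most similar pattern were sought among 7312 tested genes with a mean of at least 5 RPKM. Over all 12 libraries PRDX2, GNL1 and FKBP10 had r = 0.999 each, and all 3 were higher in KYSE150, as MMP14 was. PRDX2 had 17.8 and 0.0311 RPKM in KYSE150 and KYSE510 controls, FKBP10 19.9 and 0.0453, and GNL1 26.9 and 11.2. In deviations from group means over the same 12 libraries RNF7 had r = 0.991, BAP1 0.948 and C16orf91 0.944.

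Among the rest of the family, 12 of 15 other matrix metalloproteinase genes were listed and 3 were tested. None was called under silencing in either line by limma, with 0 at an unadjusted p under 0.05, beside 18.1% of all genes in KYSE150 and 6.35% in KYSE510. MMP15, another membrane-bound protease, had 1.49 ± 0.180 RPKM in the KYSE150 controls, 1.95 ± 0.168 after silencing, and 3.37 ± 1.01 and 2.82 ± 0.385 in KYSE510 (SD, n = 3). It was higher in silenced KYSE510 than in silenced KYSE150 libraries by 0.43 (SE 0.17; limma adjusted p = 0.0472), opposite to MMP14. MMP17 and MMP24, named after their values were seen, were lower in KYSE510 in that contrast and under 1 RPKM in each group mean.

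Of 4 other inhibitor genes, TIMP3 and TIMP4 were tested. TIMP3, an inhibitor bound to the matrix, had 0.0510 ± 0.0178 RPKM in KYSE150 controls and 8.29 ± 2.30 in KYSE510 controls (SD, n = 3). In silenced libraries it had 0.0352 ± 0.0238 and 7.28 ± 2.05, a difference of 3.83 between lines (SE 0.20). TIMP3 passed the filter only through KYSE510, so this difference was partly fixed by the filter and is a description. Counted with TIMP3, the summed inhibitors were 19.9 ± 3.74 RPKM in KYSE150 controls and 15.7 ± 3.16 in KYSE510 controls (SD, n = 3), a smaller gap than for TIMP1 and TIMP2 alone (19.8 ± 3.73 and 7.45 ± 0.876). None of the other inhibitors was called under silencing.

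The plasmin system activates several proenzymes of the family. Of its 8 genes 6 were tested, and none was called under silencing in either line by limma. At an unadjusted p under 0.05 there were 2 in KYSE150, beside 18.1% of all genes, and 0 in KYSE510, beside 6.35%. With the replicate block, which called 6.7% of all genes in KYSE150, PLAU and SERPINB2 were called there. PLAU, which encodes urokinase, rose by 0.72 (limma adjusted p = 0.0181, against 0.254 without the block). SERPINB2, an inhibitor of urokinase, fell by 0.57 on the log2 scale (limma adjusted p = 0.0280, against 0.256). Between silenced lines 2 were higher in KYSE510, SERPINE2 by 1.83 and PLAT, tissue plasminogen activator, by 1.20. SERPINB2 (-2.03) and PLAU (-1.97), the latter named after its values were seen, were lower in KYSE510.

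All 12 genes of the list of proenzyme convertases and surface partners were tested, and none was called under silencing by limma. At an unadjusted p under 0.05 there was 1 in KYSE150, beside 18.1% of all genes, and 0 in KYSE510, beside 6.35%. With the block, BSG (an inducer of matrix metalloproteinases, by 0.27), CD44 (a docking site for surface proteases, by 0.44) and CD9 (a tetraspanin, by 0.41) rose in KYSE150, at limma adjusted p-values of 0.0286 to 0.0450. The blocked fit called 6.7% of all genes there. In the mean over lines FURIN, a convertase that cuts the MMP14 propeptide, rose by 0.38 with the block (limma adjusted p = 0.0241, against 0.444 without it). CD44 was also called in that mean, beside 2.74% of all genes. Between silenced lines 5 were higher in KYSE510 and 3 lower. LCN2, a partner of MMP9, had 2.66 ± 0.302 RPKM in KYSE150 controls and 329.6 ± 108.8 in KYSE510 controls (SD, n = 3) and differed by 6.19 between silenced lines. CLDN1, a tight-junction protein, differed by 2.80, FURIN by -0.63 and PCSK7 by -1.46. CLDN1 passed the filter only through KYSE510.

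Of the ADAM and ADAMTS proteases 7 were tested, and none was called under silencing by limma, with or without the block. Between silenced lines ADAM12 (2.22) and ADAM15 (1.59) were among 4 that were higher in KYSE510, and ADAMTS1 (-1.95) was the one that was lower. Of the list of AP-1 and ETS transcription factors, known regulators of several of these promoters, 14 genes were tested. RUNX2, a factor of neither family, is among these 14. None was called under silencing by limma, with 5 at an unadjusted p under 0.05 in KYSE150 (beside 18.1% of all genes) and 1 in KYSE510 (6.35%). With the block JUNB (0.72) and ETV5 (0.69) rose in KYSE150 (limma adjusted p = 0.0276 and 0.0405), where 6.7% of all genes were called. Between silenced lines 8 were lower in KYSE510, led by FOSL1 (-2.46) and ETS1 (-2.42), and 2 were higher, FOSL2 (0.77) and ETS2 (0.73), beside 39.8% and 24.2% of all genes. FOSL1 had 164 ± 49.1 RPKM in KYSE150 controls and 31.4 ± 10.9 in KYSE510 controls (SD, n = 3).

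Squamous markers are given because they moved in the same libraries. All 9 had a change above 0 in KYSE150, with a median of 0.48, beside 66.1% of all genes and a median of 0.08. In KYSE510 7 of 9 did, with a median of 0.27, beside 42.95% of all genes and a median of -0.02. No marker was called in either line by limma without the block. At an unadjusted p under 0.05 there were 3 in each line, beside 18.1% of all genes in KYSE150 and 6.35% in KYSE510. TP63, the squamous lineage factor, was called in the mean over lines (0.32, limma adjusted p = 0.0483), beside 0.539% of all genes. With the block 6 of 9 were called in KYSE150, beside 6.7% of all genes, among them KRT14 (2.09, limma adjusted p = 0.00793). In KYSE510 the block gave 1, KRT14 (1.53, limma adjusted p = 0.0395), beside 0.112% of all genes. The part of these markers in the values of MMP14, TIMP1 and MMP2 was not tested.

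MMP7, MMP10, MMP1, MMP3 and MMP13 lie within 1 cluster on chromosome 11, in this order. MMP7 was higher in KYSE510 while MMP10, MMP1 and MMP13, which start 250 to 422 kb further on, were lower in silenced KYSE510 than in silenced KYSE150 libraries. Of the list of neighbouring genes, 7 were matched by symbol and tested. Of these 5 were higher and 2 lower in KYSE510, beside 24.2% and 39.8% of all genes tested. CFAP300, which the table lists under its older symbol C11orf70, is not among these 7. TMEM123, 124 kb before MMP7, had 15.5 ± 2.85 RPKM in KYSE150 controls and 84.7 ± 18.1 in KYSE510 controls (SD, n = 3) and differed by 1.78 between silenced lines (SE 0.17). CEP126, further out on that side, differed by 1.14. On the other side DCUN1D5 differed by -1.56 (SE 0.09), with 76.2 ± 4.37 RPKM in KYSE150 controls and 24.7 ± 1.30 in KYSE510 controls (SD, n = 3), and DYNC2H1 by -1.22. None of the 7 was called under silencing by limma. At an unadjusted p under 0.05 there was 1 in each line, beside 18.1% of all genes in KYSE150 and 6.35% in KYSE510. With the block TMEM123 rose in KYSE150 by 0.67 (limma adjusted p = 0.0356), where 6.7% of all genes were called. YAP1, a transcriptional co-activator, fell by 0.30 in the mean over lines (limma adjusted p = 0.0477, against 0.160 without the block), where 2.74% of all genes were called.

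**Figure D4:**
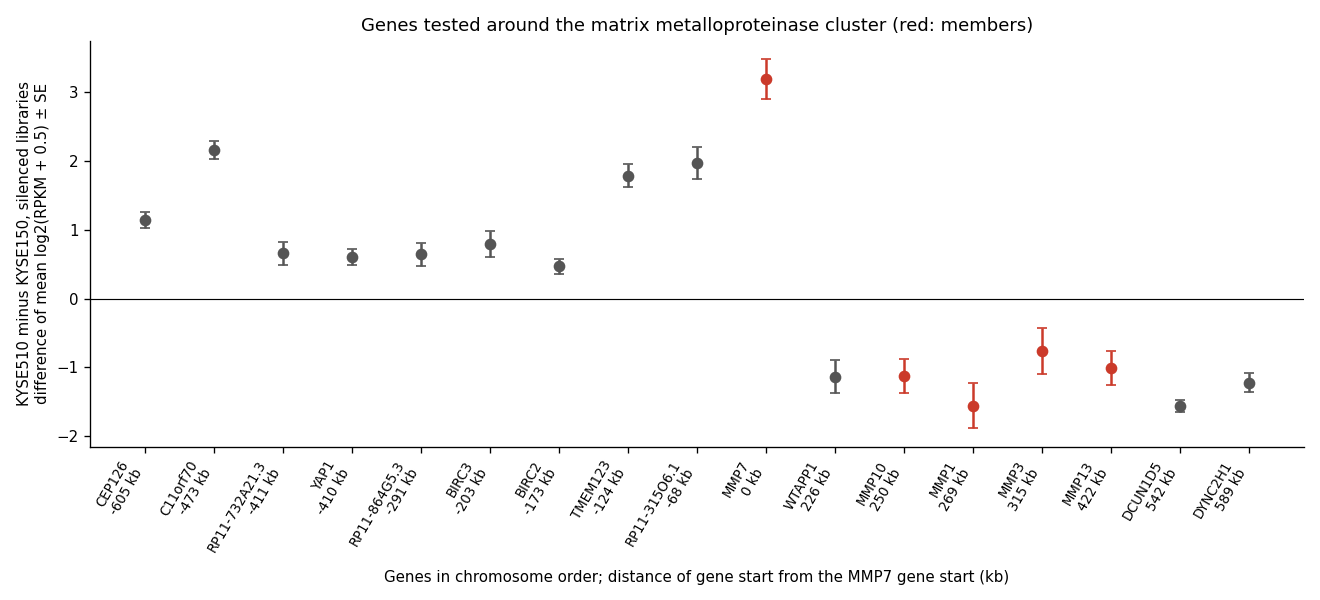
Difference between silenced KYSE510 and silenced KYSE150 libraries, as mean log2(RPKM + 0.5) ± SE from limma (3 libraries per line), for the tested genes within 700 kb of the MMP7 start, in chromosome order; labels give the distance of each gene start from that of MMP7, and red marks members. Genes up to MMP7 lie above 0 and those from WTAPP1 on lie below 0, with MMP3 the one member that missed the threshold.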

How the data were processed

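The members and gene lists were chosen with earlier results of these data known. The deposited table held RPKM for 12 libraries, scaled by the authors to the exon length of each gene and to the reads of each library. The submitters' processing notes name HISAT2, DESeq and GRCh38 without roles, and positions follow the file headers. RPKM times length was a whole multiple of 1 step per library for 100% of values (within 0.01 reads), so reads were recovered (20035025 to 28202422 per library). Intervals and floors of 3 reads cover counting error only.

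Groups and replicate numbers came from the labels. Values were analysed as log2(RPKM + 0.5), a scale that understates changes of low genes. The 17823 genes that reached 0.5 RPKM in 3 or more libraries were fitted with limma 3.58.1 in R 4.3.3 as 4 group means over 12 libraries, with eBayes and a trend, and two-sided p-values adjusted by Benjamini-Hochberg over all genes (threshold 0.05). The code was tested on simulated data. Exact permutation tests were two-sided.

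Controls and silenced cells of a line carry the same replicate numbers. Deviations from group means correlated at 0.147 to 0.415 in all 6 same-numbered pairs, and from -0.385 to 0.184 otherwise, so the numbers were taken as pairs and a blocked fit was an alternative, which cannot be had for line contrasts. Other alternatives were other pseudocounts, filters, scalings and eBayes settings, voom on recovered reads, the compared groups alone and leaving out each library.

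Named genes were all members, other family genes with a mean of at least 1 RPKM in any group, list genes past the threshold under silencing, the 2 largest line differences in each direction per list (silenced libraries, at least 1 RPKM), and the 3 genes most like MMP14 by each measure. Lists covered the rest of the family, plasminogen activation, activators and surface partners, ADAM proteases, AP-1 and ETS factors with RUNX2, 11q22 neighbours and markers of squamous, fibroblast, leukocyte and endothelial cells. MMP8, MMP26, MMP27, ADAMTS5 and ADAMTS9 were not analysed here. Line differences of other genes that passed the filter through 1 line only were partly fixed by it and are descriptions.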

Additional observations from a re-analysis of the deposited data

How the results depend on the processing

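Under silencing the count of members called moved with the replicate block to 1 in KYSE150 (MMP14) and 1 in the mean over lines (MMP2). With voom on recovered reads and the block it was 5 in KYSE150 (MMP3, MMP13, MMP14, TIMP1 and TIMP2), 1 in KYSE510 (MMP2), 2 in the mean (MMP2 and TIMP1) and 1 in the difference between lines (MMP2). The replicate block changed no other call of a member. Leaving out 1 library gave 0 to 2 members in KYSE150 and 0 in KYSE510, the mean and the difference, and the 2 came without KYSE150 control replicate 3. Between silenced lines 7 to 9 of the tested members were called over these alternatives, and the cause of these differences was not tested. Over all genes the count in KYSE150 was 89, from 7 with the compared groups alone to 3381 with voom and the block, and 15 to 1287 without 1 library. In KYSE510 it was 7, in the mean 96 and in the difference 0. These ran from 0 to 397, from 78 to 1295 and from 0 to 1353 over the alternatives that keep all libraries. Without 1 library they ran from 2 to 7, from 43 (without KYSE150 silenced replicate 2) to 140 (without KYSE150 control replicate 3) and from 0 to 4. Median centring moved the median change of all genes in KYSE150 from 0.08 to -0.05, and MMP14 there to 0.35.

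Changes near 0 reversed. MMP7 in KYSE150 was -0.047 with median centring, its mean over lines -0.0091 and its difference 0.075, and in KYSE510 it was -0.00066 with voom and the block. MMP13 in the mean was 0.11 with voom and 0.13 with voom and the block. The MMP10 difference was -0.020 with a pseudocount of 0.1, -0.11 with voom and -0.17 with voom and the block. Without 1 library, MMP10 in KYSE150 lay between -0.42 and 0.073, and in KYSE510 between -0.26 and 0.054. In KYSE510 MMP1 ran from -0.18 to 0.34, MMP3 from -0.033 to 0.038, MMP7 from -0.28 to 0.31 and TIMP2 from -0.21 to 0.26. The mean ran from -0.26 to 0.051 for MMP1 and from -0.10 to 0.19 for MMP7, and the difference from -0.37 to 0.22 for MMP7 and from -0.18 to 0.31 for MMP10. The MMP3 line difference passed the threshold with a pseudocount of 0.1, quantile normalization, voom and the compared groups alone, with limma adjusted p-values down to 0.00966. It also passed in 3 of 12 fits without 1 library (KYSE150 control replicate 2, control replicate 3 or silenced replicate 2), with limma adjusted p-values down to 0.0119. Depth limits MMP9 everywhere, MMP3 and MMP13 in KYSE510 and MMP7 in KYSE150, each with few or no reads.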

Other observations

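The wider region around the chromosome 11 cluster was examined after its values were seen, over 3 Mb on either side. Among gene starts before that of MMP10, 10 tested genes that are not members were found, of which 9 were higher in silenced KYSE510 than in silenced KYSE150 libraries and 1, WTAPP1, was lower by limma. Among them C11orf70 was at 0 in all 6 KYSE150 libraries and had 1.82 RPKM in KYSE510 controls, and RP11-315O6.1 had 0.662 and 3.42 RPKM in KYSE150 and KYSE510 controls. From MMP10 on, 7 such genes were tested, 4 higher and 2 lower. The 4 that were higher, CASP1, CARD16, CASP1P2 and CARD17, lie together about 2505 to 2572 kb from the MMP7 start, so the lower levels seen from MMP10 to DYNC2H1 did not extend to them. CASP1P2 and CARD17 lie within the span of CARD16, RP11-864G5.3 within that of YAP1 and RP11-315O6.1 within that of TMEM123. These counts are therefore not of separate loci, and whether such genes shared reads was not tested. CASP1, which encodes the protease of the inflammasome, had 0.940 RPKM in KYSE150 controls and 6.17 in KYSE510 controls. Over all genes tested 4319 were higher and 7097 lower in that contrast.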
